A study of Mus musculus with 3 samples.

Results

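The genes described here are 39 genes of the autophagy machinery, taken by name from a fixed list of gene symbols out of 55536 gene entries measured in mouse macrophages. Polyadenylated RNA was sequenced from whole cells of bone-marrow-derived macrophages, primary cells of the mouse strain C57BL/6J. All 3 libraries belonged to 1 group, stimulated at 100 ng/mL for 480 minutes, and are called replicates 1, 2 and 3. The labels disagreed on the agent: lipid A stood in the sample descriptions, and lipoprotein A in the treatment fields. Age and sex were not recorded on the labels. The labels gave the 3 biosamples a shared donor entry, so the spread between libraries may be partly technical. Each p-value below tests only whether these 3 libraries differ beyond counting error. Unstimulated macrophages were not analysed here, so every value is a level under stimulation and none is a response to it.

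Autophagy delivers cytoplasm, organelles and invading microbes to lysosomes inside a double membrane, the autophagosome. The ULK kinase complex starts the process, a class III PI3-kinase complex marks the growing membrane with PI3P, and lipid carriers extend it. A pair of ubiquitin-like conjugation systems then attach ATG8 proteins, of the LC3 and GABARAP subfamilies, to the membrane, where they bind cargo receptors. In macrophages parts of this machinery also act on phagosomes and on intracellular bacteria.

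The libraries held 26589042, 34344922 and 48356527 expected counts, summed over gene entries, for replicates 1, 2 and 3. Macrophage markers were abundant in all of them, with Lyz2 the highest of 8 at 12916 TPM on average (TPM is a level scaled for transcript length and to the same total in each library). Replicate 2 stood apart in markers of other cells. The 10 neutrophil markers summed to 421 TPM in replicate 2, against 22.9 and 21.4 TPM in replicates 1 and 3, and all 10 had their highest scaled counts there, led by S100a9 with 14.8, 237 and 12.4 TPM in replicates 1, 2 and 3. Elane, Mpo, Ly6g and Retnlg had no counts in replicates 1 and 3, and Cxcr2 none in replicate 1. Some of these were low in replicate 2 as well, where Elane had 6 counts, Ly6g and Cxcr2 2 each and Retnlg 1. Cxcr2 had 2 counts in replicate 3 too, so its higher scaled count in replicate 2 comes only from the library sizes. The 4 platelet and megakaryocyte markers summed to 870 TPM in replicate 2, against 229 and 224 TPM in replicates 1 and 3. Nearly all of each sum was Pf4, with 228, 859 and 223 TPM in replicates 1, 2 and 3, so the sums describe that gene rather than the list. Gp1bb had no counts in replicate 3. The 8 macrophage markers summed to 16752 TPM in replicate 2, against 21243 and 18121 TPM in replicates 1 and 3, an order set by Lyz2. The other 7 summed to 5985 TPM in replicate 2, against 5526 and 5859 TPM in replicates 1 and 3. Of the T cell markers, Cd3d and Cd3g had no counts in any library, where 3 counts, which is the floor used here, would make at most 0.348 and 0.162 TPM. Cd3e reached 0.54 TPM in replicate 2 and had no counts in the other libraries. The B cell marker Ms4a1 averaged 0.07 TPM and had no counts in replicate 1. In a bulk sample, fewer cells of a type and less RNA per cell cannot be told apart.

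The sequences of a microRNA gene within Vmp1 bear on the results for that gene. Mir21a, the gene of the microRNA miR-21a, lies inside the last exon of the longest transcript of Vmp1. By TPM most of the Vmp1 level was assigned to short forms whose annotated 3′ ends lie just before Mir21a. By expected counts these forms held 36.3%, and no transcript end was located from reads here. The mature microRNAs, as given in RefSeq (GRCm38.p6), are shown 5′ to 3′ with the seed, bases 2 to 8, in capitals. Both lie on chromosome 11, minus strand, at chr11:86584120-86584141 for the 5p arm and chr11:86584082-86584103 for the 3p arm.
mmu-miR-21a-5p: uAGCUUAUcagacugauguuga
mmu-miR-21a-3p: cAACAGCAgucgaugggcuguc

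The hexamer CACGTG, an E-box that reads the same on both strands, is known as a binding sequence of TFEB, TFE3 and MITF, transcription factors of lysosomal and autophagy genes. RefSeq promoter windows (GRCm38.p6) were found for 33 of the 39 genes, as 38 windows. In the 250 bases before the transcription start, the hexamer was found in 3 of the 38 windows (7.89%), against 1978 of all 32851 windows (6.02%). It was the only motif searched, and a match is a description of the letters, not of binding. All 3 genes with a match belonged to the conjugation enzymes, of which 5 had a window. That count has no background and was not tested. The stretches around the match, with the hexamer in capitals and all on the plus strand, lie at chr16:45158715-45158760 (Atg3), chr10:44268305-44268338 (Atg5) and chr6:114670944-114670989 (Atg7).
Atg3: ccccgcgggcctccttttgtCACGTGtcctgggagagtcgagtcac
Atg5: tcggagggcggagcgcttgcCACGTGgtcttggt
Atg7: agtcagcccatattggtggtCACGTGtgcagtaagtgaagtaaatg
The Atg3 window held 2 copies, of which the first is shown. The match lay 94, 14 and 132 bases before the RefSeq start of Atg3, Atg5 and Atg7. For Atg7 that start lies within the gene, 28.0 kb downstream of the start annotated in the files. The 3 genes had a median level of 16.8 TPM, against 13.4 TPM for the autophagy genes with a window but without the hexamer, a difference that was not tested.

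All 39 autophagy genes were detected, at 1 TPM or more in 3 of 3 libraries, against 9248 of 22028 protein-coding genes (42.0%). Their median level was 15.9 TPM, against 4.63 TPM over the 14577 protein-coding genes with any count and 14.9 TPM over the protein-coding genes detected. All 39 are protein-coding and lie on 18 chromosomes. Levels ranged over almost 3 orders of magnitude: 3 genes averaged over 100 TPM, 23 lay between 10 and 100 TPM and 13 below 10 TPM. Together they summed to 2033 ± 104 TPM (SD, n = 3), of which Gabarap alone made up 44.7%. The highest after Gabarap were Sqstm1 and Vmp1, and the lowest were Atg2b and Atg16l2. The lowest count of any autophagy gene in a library was 52, for Atg16l2 in replicate 2.

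**Figure D1:**
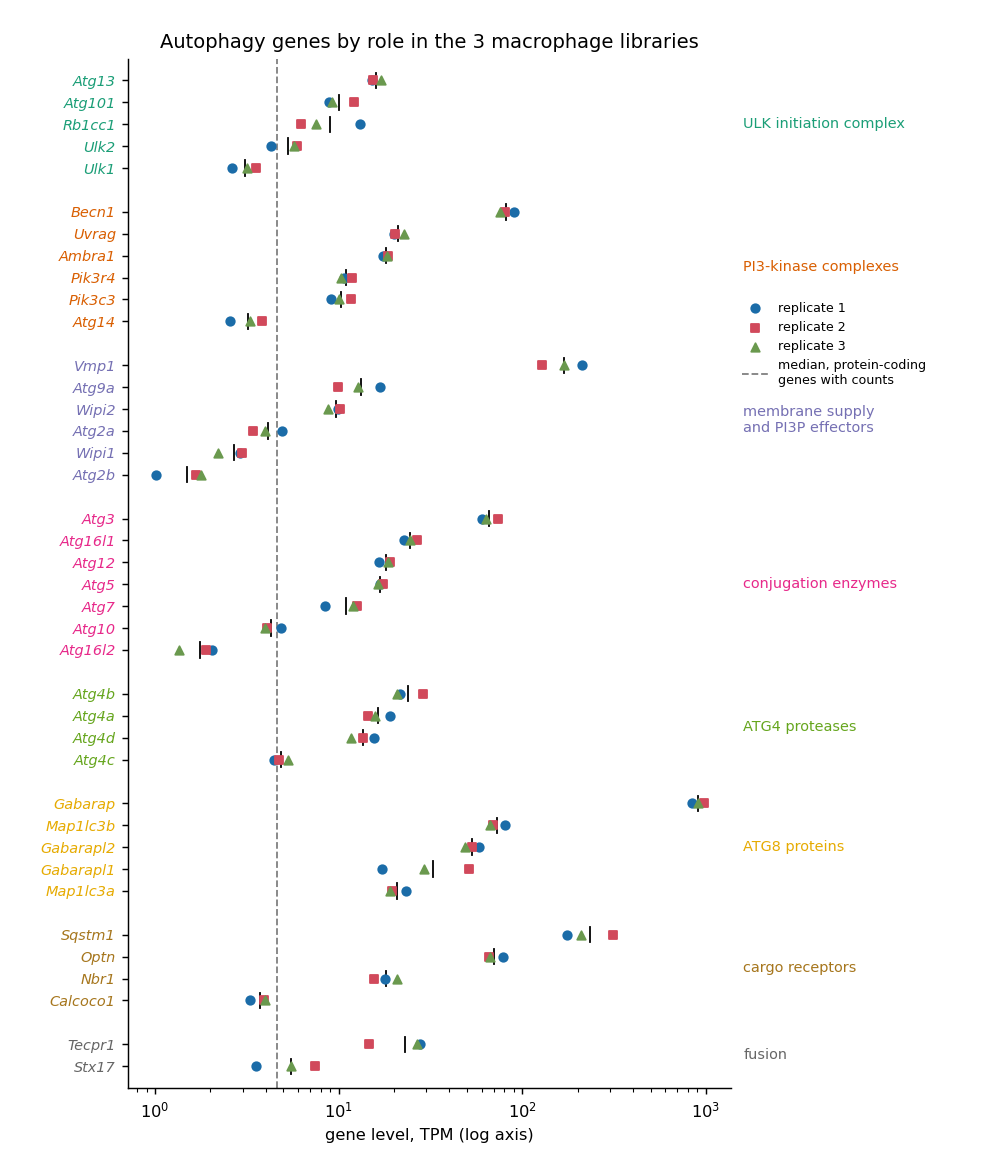
Level of each of the 39 autophagy genes in TPM (log axis), grouped by role, with 1 point per library and a black tick at the mean; the dashed line is the median of protein-coding genes with counts, 4.63 TPM. Gabarap lies farthest right at 842 to 974 TPM, and Atg2b and Atg16l2 lie lowest, at 1.01 to 2.05 TPM.

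The 5 genes of the ULK initiation complex lay at low to middling levels, with a median of 8.94 TPM. Ulk1, the kinase that phosphorylates other autophagy proteins, had 2.62, 3.53 and 3.17 TPM in replicates 1, 2 and 3. Its paralog Ulk2 had 4.27, 5.96 and 5.70 TPM and was higher than Ulk1 in every library. Within libraries Ulk1 lay 0.75 ± 0.07 below Ulk2 on the log2(TPM + 0.1) scale (SD, n = 3), a difference over 2 SD. Differences of this kind, taken inside each library, are called apart below when they point one way in all 3 libraries and their mean is larger than 2 SD. With 3 libraries the smallest p that an exact sign-flip test can give is 0.25, so no p is attached to them. Atg13 and Atg101, the adaptor subunits that hold each other in the complex, averaged 15.9 ± 1.0 and 10.1 ± 1.8 TPM (SD, n = 3). Atg101 lay 0.66 ± 0.29 below Atg13 on the log2(TPM + 0.1) scale, a difference that is no longer apart without replicate 1 or without replicate 3. Rb1cc1, which encodes the scaffold FIP200, had 13.1, 6.23 and 7.49 TPM in replicates 1, 2 and 3, so replicate 1 was the high one.

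Among the 6 genes of the PI3-kinase complexes, Becn1 stood far above the catalytic subunit. Becn1, the regulatory subunit Beclin 1, had 89.7, 80.5 and 75.9 TPM in replicates 1, 2 and 3. Pik3c3, the lipid kinase VPS34, had 9.08, 11.6 and 10.02 TPM, and its partner Pik3r4, the pseudokinase VPS15, had 10.8, 11.9 and 10.4 TPM. Pik3r4 and Pik3c3 were not apart, with a difference of 0.11 ± 0.12 (log2(TPM + 0.1), SD, n = 3), and in the second quantification of the same reads the difference was -0.28. Without replicate 1 the pair counted as apart, by 0.04. Becn1 lay 2.99 ± 0.27 above Pik3c3 on the same scale, or 7.96-fold, on the gene level. Most of this Becn1 level was on transcripts not annotated as protein-coding, described below. The complexes differ in a subunit: Atg14 directs the kinase to autophagosome formation and Uvrag to later endosomal steps. Uvrag averaged 21.04 ± 1.5 TPM and Atg14 3.22 ± 0.64 TPM (SD, n = 3), so that Uvrag made up 86.7 ± 2.4% of their sum. The pair was apart in the same direction, by 2.69 ± 0.28 on the log2(TPM + 0.1) scale. Ambra1, an activator of the complex, was the steadiest of all 39 genes, with 17.5, 18.5 and 18.3 TPM.

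The 6 genes of membrane supply and PI3P binding spanned a wide range, 1.49 to 169.8 TPM on average. Vmp1, a lipid scramblase of the endoplasmic reticulum, had 212, 129 and 169 TPM in replicates 1, 2 and 3. Atg9a, the scramblase of the vesicles that seed the autophagosome, had 16.9, 9.95 and 12.8 TPM. For both genes replicate 1 was the highest library and replicate 2 the lowest. The lipid transfer proteins Atg2a and Atg2b averaged 4.10 ± 0.76 and 1.49 ± 0.42 TPM (SD, n = 3). Atg2a lay above Atg2b by 2.17, 0.98 and 1.11 on the log2(TPM + 0.1) scale in replicates 1, 2 and 3, which is apart with all 3 libraries and no longer apart without replicate 3. Of the PI3P-binding proteins, Wipi2, which recruits ATG16L1, averaged 9.63 ± 0.74 TPM and Wipi1 2.69 ± 0.43 TPM (SD, n = 3). Wipi2 was higher in every library, by 1.81 ± 0.12 (log2(TPM + 0.1)).

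Of the 7 conjugation genes, Atg3 was the highest. Atg3, the E2-like enzyme that transfers ATG8 proteins to lipid, had 60.5, 73.7 and 63.7 TPM in replicates 1, 2 and 3. Atg7, the E1-like enzyme that serves both conjugation systems, had 8.47, 12.6 and 12.04 TPM, and lay 2.59 ± 0.22 below Atg3 (log2(TPM + 0.1), SD, n = 3). Atg10, the E2-like enzyme of the ATG12 system, averaged 4.30 ± 0.50 TPM, and Atg3 lay 15.02-fold above it. The E2-like genes Atg3 and Atg10 thus lay on opposite sides of the shared Atg7 in level. Atg12 and Atg5, whose proteins are joined to each other, averaged 18.1 ± 1.2 and 16.8 ± 0.5 TPM (SD, n = 3) and were not apart, with a difference of 0.10 ± 0.10 on the log2(TPM + 0.1) scale. Without replicate 1 they were apart, by 0.15. Atg16l1, which brings the ATG12-ATG5 conjugate to the membrane, had 22.6, 26.8 and 24.5 TPM. Its paralog Atg16l2 had 2.05, 1.89 and 1.35 TPM, so Atg16l1 lay 13.4-fold higher (3.75 ± 0.34 on the log2(TPM + 0.1) scale).

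The ATG4 proteases cut ATG8 proteins before conjugation and release them from lipid afterwards. Atg4b made up 40.5 ± 5.6% of the family's TPM, Atg4a 28.1 ± 4.1%, Atg4d 23.2 ± 2.2% and Atg4c 8.30 ± 1.36% (SD, n = 3). Atg4b had 21.7, 28.7 and 20.9 TPM in replicates 1, 2 and 3, and Atg4a had 19.0, 14.4 and 15.8 TPM. Atg4b was higher than Atg4a in each library, but the difference of 0.53 ± 0.41 (log2(TPM + 0.1)) did not exceed 2 SD. It exceeded 2 SD in the second quantification, at 0.77. Atg4b and Atg4d were apart by 0.79 ± 0.30, and no longer apart without replicate 3. Atg4c averaged 4.82 ± 0.41 TPM and lay 4.81-fold below Atg4b. The main transcript of Atg4a shares 74.9% of its 31-base words with the annotated copy Atg4a-ps, which itself averaged 0.23 TPM, so the split of reads between these 2 entries is uncertain.

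Gabarap dominated the ATG8 family, at 83.5 ± 1.2% of its summed TPM (SD, n = 3). Gabarap (chromosome 11, 69991143 to 69994951 on mm10) had 842, 974 and 912 TPM in replicates 1, 2 and 3. Of the LC3 genes, Map1lc3b had 81.1, 69.7 and 67.1 TPM and Map1lc3a 23.3, 19.6 and 19.1 TPM. Their difference varied little, at 1.79, 1.82 and 1.81 on the log2(TPM + 0.1) scale, or 3.50-fold. Gabarap lay 12.5-fold above Map1lc3b, and 17.0-fold above Gabarapl2, which had 58.3, 53.5 and 48.9 TPM. Gabarapl1 (chromosome 6, 129533160 to 129542346) had 17.3, 51.1 and 29.1 TPM and was the most uneven of the 39 genes. Gabarapl2 and Gabarapl1 were not apart, since their log2(TPM + 0.1) difference was 1.75, 0.07 and 0.75 in replicates 1, 2 and 3. In the second quantification Gabarap averaged 625 ± 75 TPM, and its share of the family was 79.2 ± 0.8%. Processed pseudogenes share 31-base words with the main transcripts of Map1lc3b and Gabarapl2, 12.7% with Gm6055 and 15.6% with Gm3724, which averaged 5.57 and 2.35 TPM.

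Among the cargo receptors, Sqstm1 led. Sqstm1, which encodes p62 and links ubiquitin-marked cargo to ATG8 proteins (chromosome 11, 50199366 to 50210827), had 176, 313 and 209 TPM in replicates 1, 2 and 3. Optn, the receptor optineurin, had 78.2, 65.6 and 66.7 TPM. Nbr1 averaged 18.1 ± 2.6 TPM and Calcoco1 3.73 ± 0.37 TPM (SD, n = 3). Sqstm1 made up 64.0%, 78.6% and 69.6% of the 4 receptors' TPM in replicates 1, 2 and 3, and Optn 28.4%, 16.5% and 22.2%. Sqstm1 was apart from each of the others, by 3.23-fold from Optn, 12.5-fold from Nbr1 and 59.2-fold from Calcoco1 (log2(TPM + 0.1) scale).

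**Figure D2:**
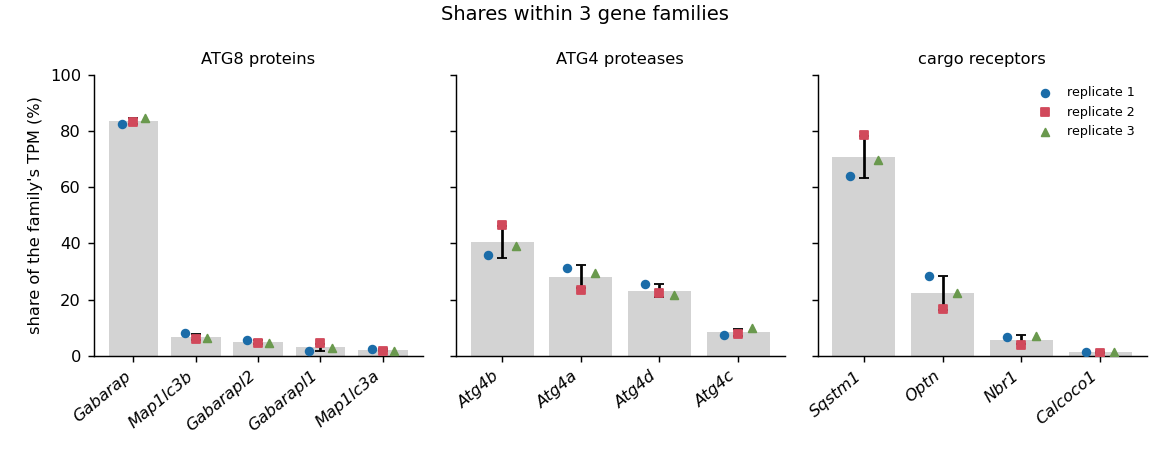
Share of the family's summed TPM (%) held by each ATG8, ATG4 and cargo receptor gene; bars are means, error bars SD over the 3 libraries, and points the libraries. Gabarap holds 82.4 to 84.7% of the ATG8 total and Sqstm1 64.0 to 78.6% of the receptor total, while the ATG4 total is spread over 4 genes.

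The fusion genes were a pair of middling level. Stx17, the SNARE protein of the finished autophagosome, had 3.53, 7.45 and 5.53 TPM in replicates 1, 2 and 3. Tecpr1, a lysosomal tether, had 27.7, 14.6 and 26.8 TPM, so replicate 2 was far below the other libraries. Over all roles, 18 of the 22 gene pairs compared were apart, and the 4 that were not are Atg4b with Atg4a, Gabarapl2 with Gabarapl1, Pik3r4 with Pik3c3 and Atg12 with Atg5. A spread that exceeds the difference does not show that the paired genes have equal levels. Pairs of other genes were not compared, so the share of pairs apart has no background.

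The spread between libraries was tested on the expected counts, scaled with TMM factors, by a chi-square test against equal abundance over all 12404 genes whose counts averaged 10 or more. By this test 29 of the 39 autophagy genes (74.4%) differed between libraries beyond counting error at a Benjamini-Hochberg adjusted p under 0.05, against 70.9% of all genes tested. That share is near the background. By a size rule, 8 of 39 (20.5%) had scaled CPM (counts divided by the TMM-scaled library size) over 1.5-fold apart between the highest and the lowest library, against 37.9% of all genes tested and 28.5% of the genes whose mean count reached that of the lowest autophagy gene, 57.7. The difference between these shares was not tested. The median coefficient of variation was 12.3% for the autophagy genes, against 16.5% for all genes tested and 14.2% for those of like count. Of the 39 genes, 13 (33.3%) stayed under 1.2-fold, against 25.5% of all genes tested and 30.6% of those of like count, led by Ambra1 with a ratio of 1.03, Gabarap with 1.04, and Becn1 and Atg5 with 1.05 each.

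All 8 uneven genes had their extremes in replicates 1 and 2, with replicate 3 between, against 56.1% of all genes over 1.5-fold. In 4 of them replicate 2 was the highest and replicate 1 the lowest. Gabarapl1 had 16.7, 40.6 and 24.9 scaled CPM in replicates 1, 2 and 3, a ratio of 2.44 (chi-square test, adjusted p = 5.8e-73). Sqstm1 had 210, 361 and 249 scaled CPM, a ratio of 1.71. Stx17 had 8.26, 13.5 and 11.4 (ratio 1.64, adjusted p = 2.9e-08) and Atg2b had 3.00, 5.21 and 5.11 (ratio 1.74, adjusted p = 0.00011). In the other 4 replicate 1 was the highest and replicate 2 the lowest. Tecpr1 had 80.6, 42.6 and 79.8 scaled CPM, a ratio of 1.89 (adjusted p = 3.1e-109). Atg9a had a ratio of 1.73, Rb1cc1 of 1.71 and Vmp1 of 1.595. Thus an ATG8 gene, a receptor and a fusion gene were highest in replicate 2, where other genes of initiation, membrane supply and fusion were lowest. The lipid transfer gene Atg2b was nearly as high in replicate 3 as in replicate 2.

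Replicate 2 is the library with 421 TPM of neutrophil markers, and any part of other cells in these differences was not tested. Without replicate 2, 15 of the 39 genes differed between replicates 1 and 3, against 41.9% of all genes, and 1, Atg2b with a ratio of 1.70, exceeded 1.5-fold, against 15.4% of all genes. The ratio of Gabarapl1 was then 1.49, of Vmp1 1.35, of Sqstm1 1.19 and of Tecpr1 1.01. Without replicate 1, 2 genes exceeded 1.5-fold, Tecpr1 with 1.87 and Gabarapl1 with 1.63, against 21.99% of all genes. Without replicate 3 the count stayed at 8, against 28.9% of all genes. The unevenness of Tecpr1 and Sqstm1 thus lay mainly between replicate 2 and the other libraries, and that of Atg2b between replicate 1 and the others.

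**Figure D3:**
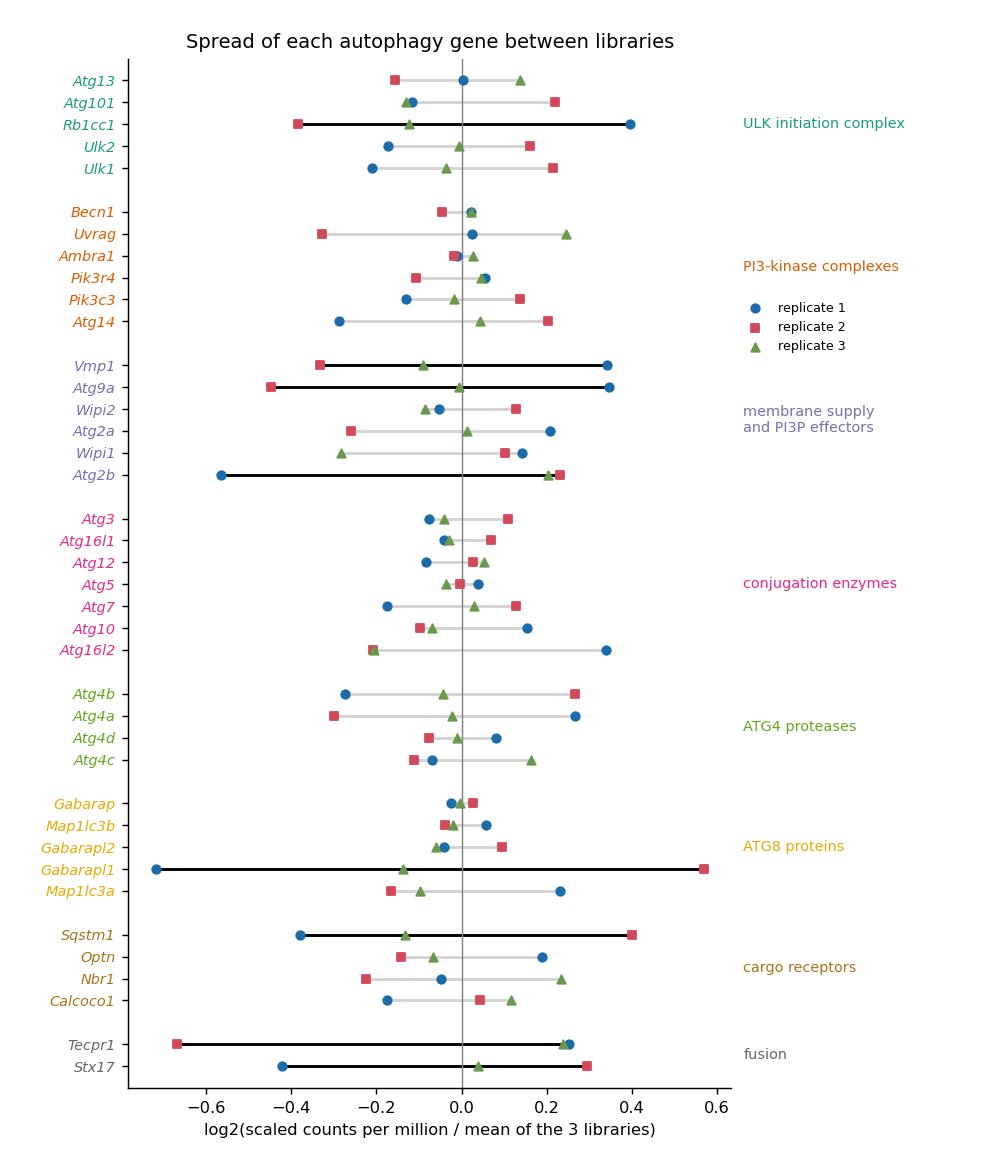
Scaled CPM of each autophagy gene in each library, as log2 of the ratio to the gene's own mean over the 3 libraries; lines join the lowest and the highest library and are black for the 8 genes over 1.5-fold. Gabarapl1 spans the widest range, a ratio of 2.44, and in all 8 black lines the triangle of replicate 3 lies between the other libraries.

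The transcript tables showed how much of each gene's level was on transcripts annotated as protein-coding. The median over the 39 genes was 94.1% of a gene's TPM, against 96.5% over the 9248 protein-coding genes detected. For 24 genes (61.5%) it exceeded 90%, against 67.2% of those 9248. For 4 genes (10.3%) it lay under 50%, against 6.1% of those 9248. By expected counts 2 genes did, Becn1 and Atg4d, against 3.24%, and in the second quantification 6 did, against 7.66%. The second quantification added Uvrag, at 35.1% and 86.8% in the first, and Rb1cc1, at 45.95% and 60.7% in the first. In the 4 genes of the first quantification, Atg4d, Becn1, Vmp1 and Atg16l2, the transcript with the highest mean share was itself not annotated as protein-coding. The gene just outside the limit was Pik3r4, at 54.1 ± 4.9% (SD, n = 3). The most abundant transcript was the same in 3 of 3 libraries for 31 of the 39 genes. The second quantification named the same main transcript for 34. Neither count was made over other genes, so neither has a background.

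Becn1 had 13.3%, 15.5% and 16.8% of its TPM on coding transcripts in replicates 1, 2 and 3, which is 12.4 ± 0.4 TPM (SD, n = 3) of its 82.0. On that scale Becn1 stood near Pik3c3, all of whose 10.2 TPM was on coding transcripts. The main Becn1 transcript, Becn1-201, is annotated as a target of nonsense-mediated decay and held 38.6 ± 2.8%, and the second, the retained-intron form Becn1-211, held 19.2 ± 5.2%. Coding transcripts held 27.4% of the expected counts of Becn1, a larger share than of TPM, which is scaled for length. The second quantification gave 9.17%. Exons of Cntd1 on the opposite strand cover 43.9% of the exonic bases of Becn1. Whether the counting used strand is not given in the sources used here, and Cntd1 itself was listed at 0.01 TPM.

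Atg4d had 11.1%, 13.1% and 19.1% of its TPM on coding transcripts, or 1.91 ± 0.27 TPM (SD, n = 3) of 13.6. Its main transcript, the retained-intron form Atg4d-203, held 63.3 ± 4.1%, and another retained-intron form, Atg4d-205, held 18.8 ± 7.4%. Counted on coding transcripts, Atg4d was thus the lowest of the ATG4 genes and not the third. By expected counts the coding share was 38.6%. Exons of Kri1, at 17.1 TPM, overlap 19.3% of the exonic bases of Atg4d on the opposite strand. Atg16l2 had 34.96 ± 8.07% of its TPM on coding transcripts by TPM and 72.5% by expected counts, and a different main transcript in each library, at a mean count of 57.7.

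**Figure D4:**
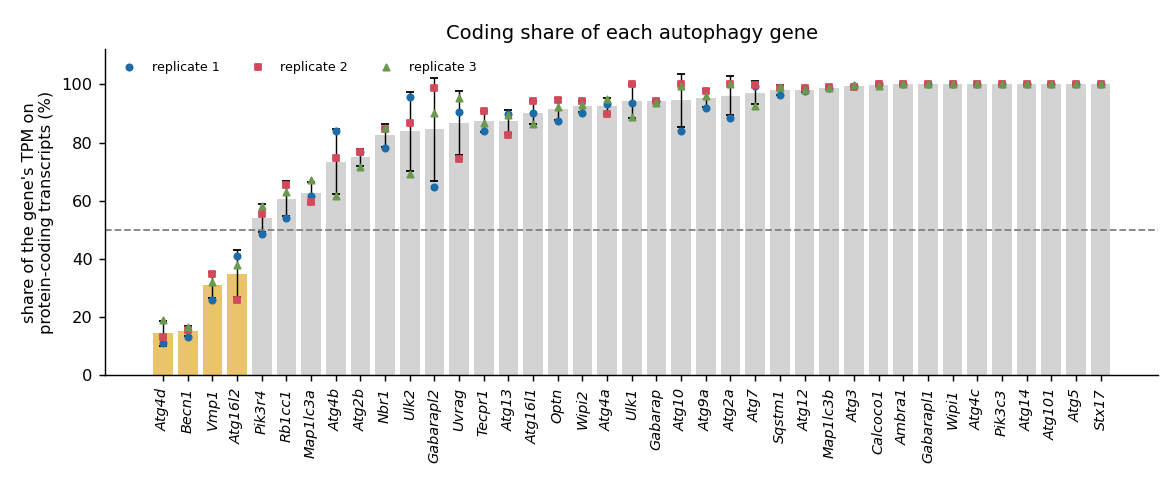
Share of each autophagy gene's TPM on transcripts annotated as protein-coding (%); bars are means, error bars SD over the 3 libraries (some pass 100%), points the libraries, and the dashed line marks 50%. Atg4d, Becn1, Vmp1 and Atg16l2, in yellow, lie under the line, from 14.4% to 34.96% on average.

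By TPM, most of the Vmp1 level was assigned to short non-coding transcripts annotated next to Mir21a. Vmp1 (chromosome 11, 86583865 to 86683836, minus strand, mm10) has 8 annotated transcripts. Mir21a, whose microRNA sequences are shown above, spans 86584067 to 86584158 and lies within the last exon of Vmp1-201, 86583865 to 86585451. The 4 annotated transcripts that start within 20 kb upstream of Mir21a are all non-coding, and their annotated 3′ ends lie 772 to 1114 bases upstream of it. They held 73.8%, 65.0% and 68.0% of the TPM of Vmp1 in replicates 1, 2 and 3, a mean of 68.9 ± 4.5% (SD, n = 3). By expected counts they held 36.3%, and in the second quantification 69.0% of TPM. The main one, Vmp1-206, has 2 exons, starts 2.84 kb upstream of Mir21a and had 100, 38.4 and 58.9 TPM. The full-length coding transcript Vmp1-201, which starts 99.7 kb upstream and contains Mir21a, had 50.3, 40.8 and 41.1 TPM. The difference between libraries in Vmp1 was thus mostly in Vmp1-206, while Vmp1-201 stayed between 40.8 and 50.3 TPM. Their exons overlap, so the split of reads rests on the models of both quantifications. Mir21a itself had no counts in this polyadenylated RNA. Its bases lie within an exon of Vmp1-201, so the level of the microRNA cannot be read from this value.

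**Figure D5:**
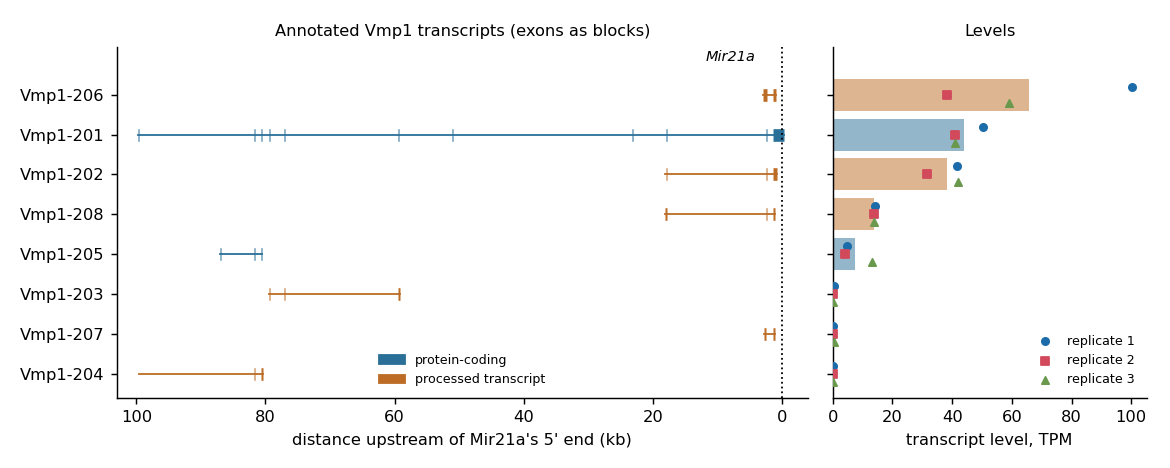
Annotated transcripts of Vmp1 drawn by distance upstream of the 5′ end of Mir21a (kb, transcription from left to right), with exons as blocks, and the level of each transcript in TPM on the right, with bars as means and points as libraries. Vmp1-206, Vmp1-202 and Vmp1-208 start within 20 kb of Mir21a and end before it, and Vmp1-206 has the highest mean, with 100 TPM in replicate 1.

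Both quantifications of the reads were compared gene by gene. In the second, levels were lower by a median of -0.18 (log2) for the 39 genes, against -0.22 for all protein-coding genes detected, and levels are read relative to that shift. Mean levels agreed within 1.5-fold for 38 of the 39 genes (97.4%), against 97.2% of those genes. The exception was Pik3r4, with 7.09 ± 1.18 TPM in the second quantification and 11.0 ± 0.8 TPM in the first (SD, n = 3). Of the main coding transcripts of the 39 genes, 28 shared under 5% of their 31-base words with any other gene, and 6 shared over 20%, which were Atg4a, Becn1, Atg9a, Rb1cc1, Gabarapl2 and Atg4d. Values of those 6 depend on how reads were divided.

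Further genes of the pathway, 46 in 5 lists, were set beside them. Of these 42 were detected, with a median of 20.1 TPM. Of 45 tested, 31 differed between libraries, and 5 exceeded 1.5-fold, against the 70.9% and 37.9% of all genes. Among 10 genes of nutrient sensing and transcriptional control, Tfe3, Mitf and Tsc2 were the highest at 65.4, 34.1 and 14.8 TPM, and Prkaa2 and Foxo3 the lowest at 0.0867 and 3.19 TPM. Tfe3 and Mitf encode E-box binding factors, and Tsc2 an inhibitor of mTOR signalling. Among 4 regulators of the PI3-kinase, Nrbf2, Zfyve1 and Rubcn had 31.8, 11.0 and 7.33 TPM and Bcl2 0.817 TPM. The PI3P effectors Wdr45b and Wdr45 had 32.4 and 4.21 TPM, and Tmem41b, a scramblase like Vmp1, had 27.6 TPM.

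Other receptors reached levels near that of Sqstm1. Among 14 genes of cargo binding and mitophagy, Tax1bp1, Ncoa4, the receptor for ferritin, and the kinase Tbk1 had 193, 182 and 99.3 TPM. Calcoco2, the lowest, had no counts, where 3 counts would make at most 0.167 TPM. Bnip3l, a mitophagy receptor, had 24.2, 48.4 and 26.1 TPM in replicates 1, 2 and 3, so that it was highest in replicate 2. Of the 5 further genes over 1.5-fold, 3 were highest in replicate 2, which were Bnip3l, Bnip3 and Prkaa2. The other 2 were lowest there: Wdfy3 had 22.5, 10.7 and 16.2 TPM in replicates 1, 2 and 3, and Lamp2 had 824, 553 and 739 TPM. The 15 genes of fusion with lysosomes were led by Lamp1, Lamp2 and Vamp8 at 1891, 705 and 441 TPM. Epg5 and Tecpr2, the lowest, had 2.74 and 5.04 TPM. Lamp1 thus stood above all 39 autophagy genes, and Lamp2 and Vamp8 above all of them but Gabarap.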

How the data were processed

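Per the file headers, the deposited gene and transcript tables hold expected counts, which a model assigns and which need not be whole, TPM and, for transcripts, percent values that divide each gene's TPM among its transcripts. A second deposited transcript table holds estimated counts and TPM, summed here per gene. Per the readme deposited with each sample, the build was mm10 with GENCODE M21. Neither programs nor strand use is given in these sources. Entries without a gene identifier, at most 0.127% of counts, were left out.

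All 3 libraries form 1 group, so no groups were compared. Genes, roles, pairs and lists were chosen with earlier results of these data known. All 39 genes are named. Of each further pathway list, the 3 highest and 2 lowest by mean TPM are named, of each cell list the highest and those without counts, and of a gene's transcripts the first and second. Some genes that meet this rule are not reported here. Bnip3l, Bnip3 and Wdfy3, over 1.5-fold, were named after their values were seen. The grouping of short Vmp1 transcripts that start within 20 kb of Mir21a was also added after the data were seen. Expected counts were rounded for a chi-square test at TMM-scaled library sizes (edgeR 4.0.16), Benjamini-Hochberg adjusted over 12404 genes. On simulated counts for these genes it called 78% of 100 genes set 1.5-fold apart in 1 library, 97.4% of the 78 with a mean count of at least 100, and 0.041% of unchanged genes. It measures counting error only. Gene pairs used a pseudocount of 0.1 TPM, which makes differences of low genes smaller. Other tools were R 4.3.3, DESeq2 1.42.0 (size factors as an alternative), Python 3.11.15, scipy 1.17.1 and matplotlib 3.10.9. Alternatives covered quantification, TPM total, thresholds, pseudocount, normalization, count filter and each library left out.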

Additional observations from a re-analysis of the deposited data

How the results depend on the processing

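Of the 50 recomputed summary values, 43 kept within 1.5 times the count, or within 1 SD of the median level, of the value reported. Some of the 43 could not have come out otherwise, so this tally overstates how stable the values are. With all 39 genes detected, a lower threshold, TPM scaled up or a library left out must give 39 again. A mean count of at least 10 removed no gene, and 1 recount of main transcripts used the same genes. The median level, 3.998 on the log2(TPM + 0.1) scale, was 3.78 with the second quantification and 4.21 with TPM rescaled to protein-coding nuclear genes. These settings shifted all genes over 1 TPM by a median of -0.22 and 0.21, so the levels moved with the whole table. The number of genes over 1.5-fold between libraries ranged from 1 to 8 when a library was left out, and that of genes differing by the chi-square test from 15 to 27. A 2-fold rule left 1 gene, Gabarapl1, against 16.4% of all genes. The number of genes under 50% coding, a count not planned in advance, was 4 by TPM. It was 2 by expected counts, an alternative chosen after seeing the data. With library totals in place of TMM, 9 genes exceeded 1.5-fold, of which 7 were among the 8, and Vmp1 was at 1.44. At 5 TPM 28 of the 39 genes counted as detected, and 38 at 1 TPM in the second quantification. No gene pair that was apart changed sign, and the number apart ranged from 15 to 19.

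No paired analysis was possible because the samples form 1 group. Depth limits the low genes: Atg16l2 had 52 to 68 counts a library. With 3 libraries and 1 condition, no value says how the genes respond to the stimulus, and RNA levels do not measure autophagic activity.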
